A study of Mus musculus with 3 samples.

Results

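Lymphatic-rich spots are here places on a spatial array where transcripts of 4 genes used as markers of lymphatic vessels were concentrated. In each library of mouse distal colon, the 10% of spots over tissue with the highest share of transcripts from 4 lymphatic genes, Ccl21a, Mmrn1, Reln and Flt4, were taken. The spots were thus selected on a measured value, the share of these 4 genes, and all other genes were compared between wild-type (WT) day 2 wounds and WT intact colon in these spots. The selection gave 50 of 502 spots in WT intact and 64 of 640 in WT wound, 114 of the 1142 spots of these 2 libraries. A further 57 of 572 spots came from wounds of mice labelled as knockout (KO) for Hgfac, a serine protease that activates hepatocyte growth factor, and are given only for reference. All 3 libraries together held 1714 spots.

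Lymphatic capillaries are blind-ended vessels lined by endothelial cells that take up tissue fluid, proteins and migrating leukocytes and return them through lymph nodes to the blood. In the colon they run at the base of the mucosa, in the submucosa and within the muscle wall, often beside blood vessels. Their endothelium secretes CCL21, which draws dendritic cells and T cells that carry the receptor CCR7. It grows in response to VEGF-C and VEGF-D acting on VEGFR-3, the product of Flt4. Mmrn1 encodes multimerin-1, a secreted glycoprotein of endothelium and platelets, and Reln encodes reelin, a secreted glycoprotein that collecting lymphatics also release.

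The assay was Visium, in which a frozen tissue section is laid over spots that carry position barcodes, and captured RNA molecules are counted through unique molecular identifiers (UMIs). Intact distal colon of Hgfac WT mice, distal colon wounds of Hgfac WT mice at day 2 and distal colon wounds of Hgfac KO mice at day 2 each gave 1 library that pooled 3 biological replicates. Age, sex, strain background, the way of wounding and the kind of Hgfac allele are not given in the sources used here. Capture area and group cannot be told apart because each area held 1 library, and with 1 library per group there was no test between groups. A spot is a small region that can hold several cells of different types, so fewer cells of a type and less RNA per cell cannot be told apart.

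Summed UMIs of the lymphatic-rich spots were 597826 for WT intact, 881571 for WT wound and 679790 for KO wound. Their median depth per spot was 10052, 13600 and 12211 UMIs in the same order, against 11634, 14924 and 13487 UMIs in the other spots. Counts of a gene were summed over the spots of a library and divided by the spots' total, and are given as CPM, the UMIs of a gene in every 1000000 UMIs of these spots. A ratio is CPM in WT wound over CPM in WT intact unless stated otherwise, and the range in parentheses after it is its exact 95% interval, which covers counting error only. Each section formed 3 separate tissue pieces, which the labels tie to no animal. Piece values are given in the order of pieces 1, 2 and 3, as a view of the spread within a library and not as replicates. The lymphatic-rich spots fell 17, 21 and 12 to the pieces in WT intact and 28, 23 and 13 in WT wound.

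**Figure D1:**
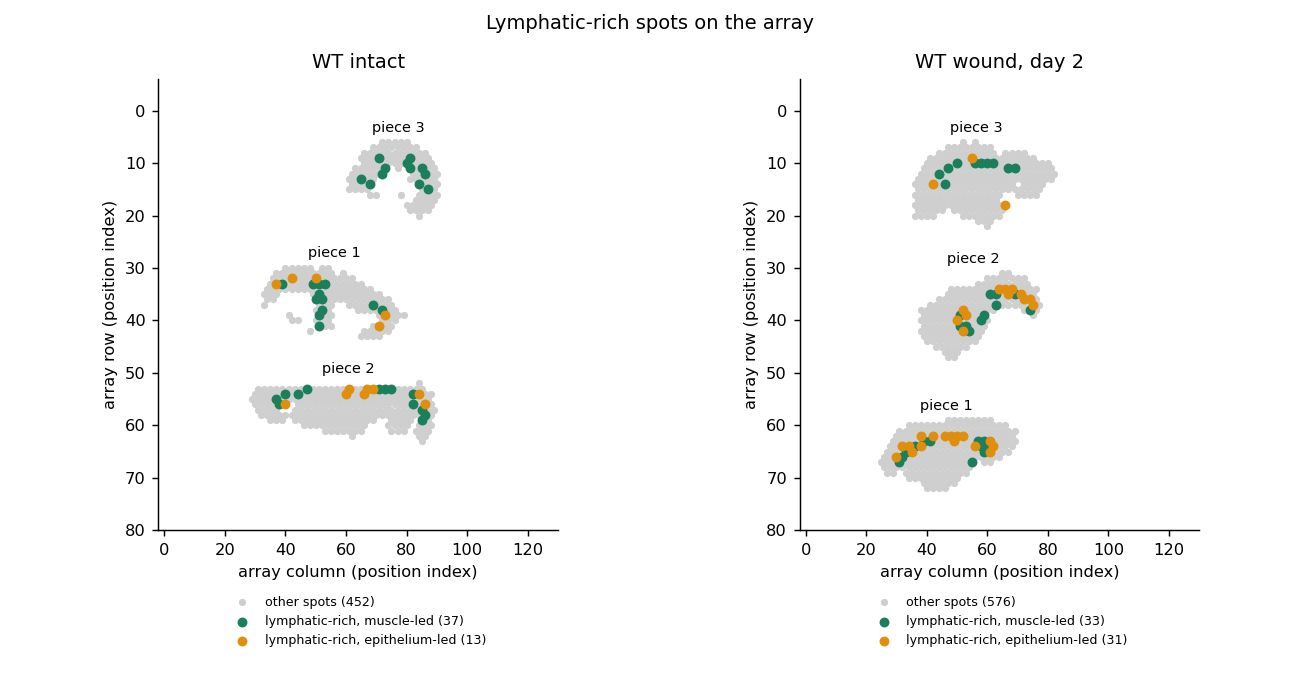
Position of the spots over tissue on the array (column and row index) in WT intact, left, and WT wound, right, with lymphatic-rich spots in colour and all other spots in grey. Green marks lymphatic-rich spots with more smooth muscle than epithelial UMIs and orange the reverse, 37 against 13 in WT intact and 33 against 31 in WT wound. Most lie next to another lymphatic-rich spot, 37 of 50 and 56 of 64.

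The values that chose the spots are a description and carry no test. The 4 genes made up a median of 0.189% of a chosen spot's UMIs for WT intact, 0.218% for WT wound and 0.262% for KO wound. The last spot inside the limit had 0.1020% and the first outside 0.1015% for WT intact, 0.09148% and 0.09055% for WT wound, and 0.09510% and 0.08671% for KO wound, so the boundary was gradual in both WT libraries. Ccl21a gave most of these UMIs, 999 of 1231 in WT intact and 2288 of 2668 in WT wound. The near-identical copies Ccl21b and Ccl21c were listed at 0 UMIs, and how reads of these copies were divided is not given in the sources used here, so the Ccl21a counts are uncertain in that respect. The chosen spots held 61.3% of all UMIs of the 4 genes in WT intact and 73.8% in WT wound.

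The label was checked with lymphatic genes that the choice did not use. Lyve1, a hyaluronan receptor of lymphatic capillaries and some macrophages, stood at 167 CPM in the lymphatic-rich spots of WT intact and 19.8 CPM in its other spots, a ratio of 8.46 (6.50 to 11). The same ratio of lymphatic-rich to other spots was 9.37 (7.29 to 12.0) in WT wound and 11.9 (8.71 to 16.2) in KO wound. Fgl2, a fibrinogen-like protein, was 5.28, 4.16 and 6.21 times its level in other spots in the 3 libraries. For Ackr2, a scavenging chemokine receptor of lymphatic endothelium, 13 UMIs lay in lymphatic-rich and 4 in other spots of WT intact, and 9 and 7 in WT wound. All these genes were thus concentrated in the chosen spots.

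Some markers were too sparse to serve. Prox1, the transcription factor that specifies lymphatic endothelium, had 5 UMIs for WT intact, 4 for WT wound and 9 for KO wound in the chosen spots. Stab2, a scavenger receptor, had 0, 2 and 0 UMIs in that order. As a list, the 18 lymphatic endothelial genes outside the choice had a summed ratio of lymphatic-rich to other spots of 3.54 (3.21 to 3.89) for WT intact, 3.23 (2.98 to 3.48) for WT wound and 3.81 (3.50 to 4.14) for KO wound. Genes of other cells were also higher than in other spots. The 18 blood endothelial genes had ratios of 2.50 and 2.49 in the WT intact and WT wound libraries. For the 11 B cell genes it was 10.7 and 6.21. The T and NK cell list had 4.16 and 3.30, and the mesothelial list 3.97 and 2.50. In WT intact the B cell, T and NK cell and mesothelial lists thus stood above the lymphatic list itself. The epithelial list stood at 0.414 and 0.438. The chosen spots thus also held transcripts of blood vessels, lymphocytes and mesothelium, and the label names the rule and not a pure tissue.

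**Figure D2:**
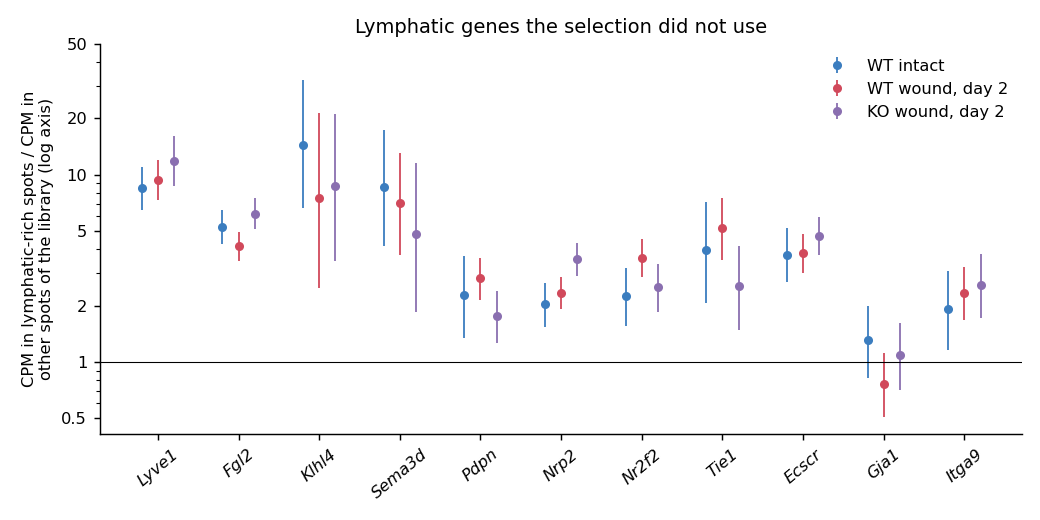
CPM in lymphatic-rich spots divided by CPM in the other spots of the same library (log axis) for 11 lymphatic endothelial genes that the choice did not use, with exact 95% intervals for counting error as bars. Points are the 3 libraries, WT intact in blue, WT wound in red and KO wound in purple. Lyve1, Fgl2, Klhl4 and Sema3d lie farthest above 1, and Gja1 lies near 1 in all 3.

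The makeup of the chosen spots differed between the libraries. By the balance of smooth muscle to epithelial UMIs, 74.0% of the lymphatic-rich spots were muscle-led in WT intact and 51.6% in WT wound, against 48.7% and 35.2% of the other spots. Ratios within muscle-led and within epithelium-led lymphatic-rich spots are therefore given beside many of the list results. Spots with at least 5 UMIs of the B cell list numbered 5 in WT intact. WT wound had 12, and all 12 lay in piece 1. Mitochondrial genes held 3.44% and 3.70% of UMIs.

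Of 4630 genes with at least 50 UMIs over both WT libraries in these spots, 240 had a ratio of at least 2, or 5.18%, and 125 a ratio of at most 0.5, or 2.70%. These limits define higher and lower throughout, and counts within the gene lists below stand beside these shares. The minimum is summed over both libraries, and WT wound has more UMIs. A gene can thus be compared only because it is high in WT wound, as were Ccl5, Ccr2, Timp1, Cxcl13, Vcam1 and Icam1, among others. Counts of higher genes can be raised by this filter. Over all 4630 genes the log2 ratio had a median of 0.10. In 167 of the 240 higher genes every WT wound piece lay above every WT intact piece, and in 85 of the 125 lower genes every WT wound piece lay below. Over all compared genes the pieces lay apart upward in 12.3% and downward in 7.08%. In the other spots, 69 of the 240 were also higher and 231 had a ratio above 1, while 71 of the 125 were also lower. Across other spots as a whole, 3.10% of 12195 genes were higher and 3.01% lower. In muscle-led lymphatic-rich spots alone, 99 of 2539 genes were higher (3.90%) and 76 lower (2.99%). In epithelium-led ones, 212 of 1967 were higher (10.8%) and 97 lower (4.93%). Leaving out the spots with at least 5 B cell UMIs gave 155 of 3810 genes higher (4.07%) and 97 lower (2.55%).

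**Figure D3:**
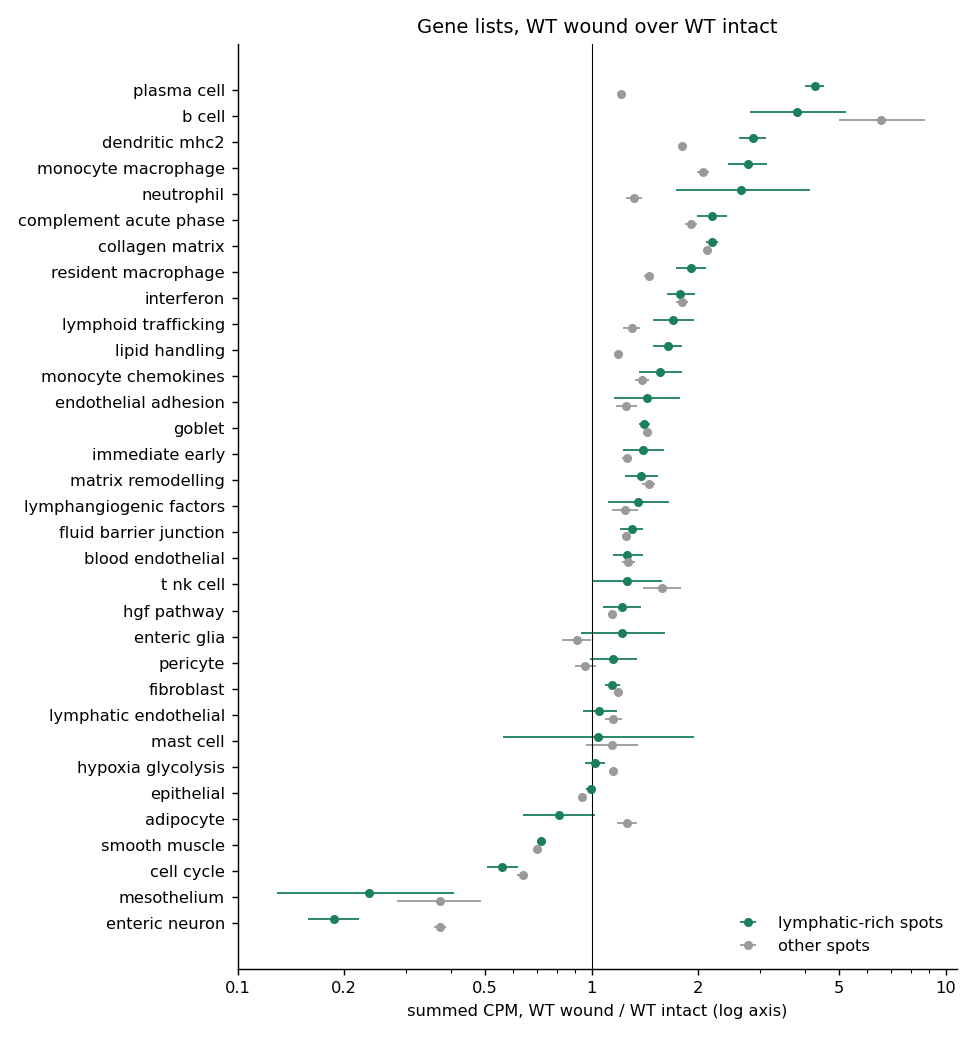
Ratio of summed CPM, WT wound over WT intact (log axis), for 33 gene lists in lymphatic-rich spots (green) and in the other spots of the same libraries (grey), with exact 95% intervals for counting error. Plasma cell, B cell, MHC class II, monocyte and macrophage, and neutrophil lists lie farthest right in lymphatic-rich spots, and enteric neuron and mesothelium lists farthest left.

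The summed level of lymphatic endothelial genes was similar in wounded and intact colon over all chosen spots, but not within the epithelium-led ones. The 18 genes of the list summed to 902 CPM in WT intact and 949 CPM in WT wound, a ratio of 1.05 (0.944 to 1.18). It was 0.977 (0.853 to 1.12) in muscle-led and 1.37 (1.12 to 1.69) in epithelium-led lymphatic-rich spots, and of these intervals only the latter excluded 1. In the other spots the list had a ratio of 1.15 (1.09 to 1.22), an interval that also excluded 1. Of the 9 members with enough UMIs to compare, 1 was higher, none was lower and 8 were neither, beside 5.18% higher and 2.70% lower over all genes. The median log2 ratio of those 9 was 0.32, beside 0.10 over all genes. Leaving out each piece in turn gave summed ratios of 0.990 to 1.09.

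The member that was higher was Pdpn, which encodes podoplanin, a membrane glycoprotein of lymphatic endothelium that fibroblastic stromal cells and some macrophages also make. It measured 22.4, 35.1 and 58.6 CPM in the WT intact pieces and 76.6, 89.6 and 98.4 CPM in the WT wound pieces. Every wound piece lay above every intact piece. The library ratio was 2.58 (1.56 to 4.45), and the other spots gave 2.10 (1.69 to 2.63).

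Lyve1 measured 157, 167 and 195 CPM in the WT intact pieces and 156, 134 and 86.1 CPM in the WT wound pieces. The wound pieces all lay below the intact ones, by little in piece 1. The ratio of 0.800 (0.608 to 1.06) was inside the limits and its interval included 1. It was 0.625 in muscle-led and 1.51 in epithelium-led lymphatic-rich spots.

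Fgl2 had a ratio of 0.873 (0.689 to 1.11), with overlapping pieces. Nrp2, which encodes the VEGF-C co-receptor neuropilin-2, had a ratio of 1.24 (0.917 to 1.70). Nr2f2, which encodes COUP-TFII, a transcription factor of venous and lymphatic endothelium, measured 78.4, 61.5 and 39.1 CPM in WT intact and 135, 89.6 and 92.3 CPM in WT wound. Its pieces did not overlap, its ratio of 1.65 (1.13 to 2.46) was short of 2, and in the other spots it was 1.03. Tie1, an endothelial receptor kinase, had a ratio of 1.90 (1.03 to 3.69) and Ecscr, an endothelial surface protein, 1.25 (0.870 to 1.80). None of these 5 genes passed the limit.

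The chemokine scavengers Ackr4 and Ackr2 and the kelch-like gene Klhl4 were sparse. Ackr4, whose product binds CCL19 and CCL21, had 14 UMIs in WT intact and 6 in WT wound, a ratio of 0.291 (0.0915 to 0.805). Ackr2 had 13 and 9 UMIs, a ratio of 0.469 (0.177 to 1.19). Klhl4 had 16 and 7 UMIs, a ratio of 0.297 (0.103 to 0.762). At these depths none reached the 50 UMIs required for comparison, and only the intervals of Ackr4 and Klhl4 lay below 1.

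The growth factors that act on lymphatic endothelium were at the edge of detection. Vegfc had 8 UMIs in WT intact and 21 in WT wound, a ratio of 1.78 (0.757 to 4.65), and Vegfd 4 and 16, a ratio of 2.71 (0.875 to 11.1). Ccbe1, which encodes a secreted protein needed to process VEGF-C, had 3 and 11 UMIs, a ratio of 2.49 (0.657 to 13.9). All 3 intervals included 1, so a difference was not detectable at this depth. In the much deeper other spots the ratio was 1.42 (0.982 to 2.08) for Vegfc, 1.99 (1.27 to 3.22) for Vegfd and 3.35 (1.24 to 11.3) for Ccbe1.

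Of the 18 genes of the growth factor and receptor list, 2 had enough UMIs to compare and neither passed the limit. Calcrl, the adrenomedullin receptor, had a ratio of 1.63 (0.977 to 2.82), and Ramp2, its co-receptor, 1.13 (0.771 to 1.67). Kdr, which encodes VEGFR-2, had 16 and 24 UMIs, a ratio of 1.02 (0.518 to 2.05). The whole list summed to 264 CPM in WT intact and 357 CPM in WT wound, a ratio of 1.35 (1.11 to 1.65), with 310, 180 and 332 CPM in the intact pieces and 374, 382 and 264 CPM in the wound pieces. Those pieces overlap. The list had 1.22 (0.960 to 1.56) in muscle-led and 1.79 (1.25 to 2.61) in epithelium-led spots.

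The 4 genes of the choice are described only. Ccl21a measured 1860, 1537 and 1475 CPM in the WT intact pieces and 2828, 2656 and 1968 CPM in the WT wound pieces, against 80.5 and 75.0 CPM in the other spots of the 2 libraries. Flt4 measured 70.3 CPM in WT intact and 90.7 CPM in WT wound, Reln 68.6 and 97.6 CPM, and Mmrn1 249 and 243 CPM. Since these values placed the spots in the set, nothing is read from them.

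Genes that guide leukocytes along vessels and lymphoid tissue were higher in part. Cxcl12, a stromal and endothelial chemokine that attracts cells bearing CXCR4, measured 168, 162 and 156 CPM in WT intact and 300, 390 and 381 CPM in WT wound. No wound piece came near the intact range. The ratio was 2.16 (1.72 to 2.74), against 1.40 (1.28 to 1.54) in the other spots, and it stayed between 1.99 and 2.36 with each piece left out.

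Cxcl13, the chemokine that draws B cells into follicles, measured 3.74, 8.78 and 19.5 CPM in the WT intact pieces and 150, 50.1 and 18.5 CPM in the WT wound pieces. Its ratio was 9.90 (4.05 to 31.4), but wound piece 3 lay within the intact range. Ccl19, the second ligand of CCR7, had 1 UMI in WT intact and 40 in WT wound, with 103, 13.2 and 0 CPM in the wound pieces. The ratio was 27.1 with a counting interval of 4.60 to 1098. Ccr7 itself had 5 and 19 UMIs, a ratio of 2.58 (0.931 to 8.83).

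Wound piece 1 also held the spots rich in B cell UMIs. Without the spots with at least 5 B cell list UMIs, Cxcl13 had a ratio of 3.92 (1.50 to 13), and Ccl19 had 1 UMI in WT intact and 8 in WT wound, 5.41 (0.726 to 240). Cxcl12 had 2.32 (1.79 to 3.02). The choice of these spots was made after the data were seen. Of the 15 genes of the trafficking list, 5 could be compared, and 2 were higher and none lower. Cxcl13 passed the UMI minimum through WT wound, where it is high, so its place among the compared genes was partly set by the filter. The list had a summed ratio of 1.70, with 1.42 in muscle-led and 2.14 in epithelium-led spots.

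Adhesion molecules with which endothelium holds leukocytes were sparse, and 2 of 3 compared were higher, beside 5.18% over all genes. Both, Vcam1 and Icam1, passed the UMI minimum through WT wound, where they are high. That count was thus partly set by the filter, and nothing is read from it. Vcam1 measured 26.1, 17.6 and 0 CPM in WT intact and 64.8, 52.7 and 43.1 CPM in WT wound, a ratio of 3.02 (1.55 to 6.44). Icam1 measured 33.6, 8.78 and 19.5 CPM in WT intact and 67.7, 50.1 and 30.8 CPM in WT wound, a ratio of 2.45 (1.30 to 4.94). The Vcam1 pieces lay apart and the Icam1 pieces overlapped. Without the B cell spots the ratios were 2.41 and 1.97, and in the other spots 2.08 and 1.90. The adhesion list had 1.24 (0.955 to 1.63) in muscle-led and 2.02 (1.37 to 3.08) in epithelium-led spots.

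Most blood vessel genes were neither higher nor lower. Of 14 compared, 1 was higher and none lower, beside 5.18% higher and 2.70% lower over all genes, so the count says little about these genes. The list summed to 1042 CPM in WT intact and 1317 CPM in WT wound, a ratio of 1.26 (1.15 to 1.40). It had 1.27 in the other spots, 1.44 in muscle-led and 1.04 in epithelium-led lymphatic-rich spots. The gene that was higher was Emcn, a sialomucin of capillary and venous endothelium, at 2.43 (1.26 to 5.06), with overlapping pieces and 0.782 in the other spots. Pecam1, the junctional protein CD31, had a ratio of 1.26 (0.866 to 1.87), and Plvap, a protein of fenestrated vessels, 1.69 (1.19 to 2.42). Hspg2, the basement membrane proteoglycan perlecan, was the gene past the limit among 14 compared of the barrier and junction list, at 2.37 (1.86 to 3.03). That count is also near the share over all genes. Cspg4, a pericyte proteoglycan, had 2.49 (1.39 to 4.74), with all wound pieces above all intact ones. The pericyte list had a ratio of 0.996 (0.832 to 1.19) in muscle-led and 2.20 (1.58 to 3.13) in epithelium-led spots.

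Collagens and other matrix genes were higher in the lymphatic-rich spots of the wound. Of 17 compared, 9 were higher and none lower, and in all 9 the pieces lay apart. The list summed to 4176, 5037 and 6739 CPM in the WT intact pieces and 8583, 11975 and 12817 CPM in the WT wound pieces, a ratio of 2.19 (2.10 to 2.28). The median log2 ratio was 1.09, beside 0.10 over all genes. The other spots gave 2.12, so the matrix list differed little between the chosen spots and the rest of the section.

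Col1a1, a chain of fibrillar collagen I, measured 183, 400 and 420 CPM in WT intact and 633, 1099 and 1476 CPM in WT wound, a ratio of 3.23 (2.75 to 3.81). Col1a2, its partner chain, had a ratio of 2.92 (2.50 to 3.42) and Col3a1, collagen III, 2.16 (1.95 to 2.40). Sparc, a collagen-binding protein, had 2.18 (1.90 to 2.50) and Mgp, matrix Gla protein, 2.46 (2.18 to 2.77). Fn1, fibronectin, was short of the limit at 1.87 (1.67 to 2.10). Timp1, an inhibitor of metalloproteinases, had 8 UMIs in WT intact and 59 in WT wound, a ratio of 5.0 (2.38 to 12.1), and Mmp2, gelatinase A, 2.27 (1.65 to 3.17). The fibroblast list itself, dominated by genes such as Dcn and Gsn, had a ratio of 1.14, with 1 of 12 genes higher, beside 5.18% over all genes. It was 0.940 in muscle-led and 1.55 in epithelium-led spots.

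Macrophage genes were higher in all 3 wound pieces. Of 6 monocyte and macrophage genes compared, 4 were higher and none lower, and the list of 15 summed to 418, 474 and 811 CPM in the WT intact pieces and 1853, 1162 and 1002 CPM in the WT wound pieces. The ratio was 2.76 (2.43 to 3.14), against 2.07 in the other spots, 2.90 in muscle-led and 2.59 in epithelium-led lymphatic-rich spots. It was 2.48 without the B cell spots, and 2.20 to 3.15 with each piece left out.

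Lyz2, lysozyme of macrophages and neutrophils, measured 202, 299 and 440 CPM in WT intact and 1225, 627 and 609 CPM in WT wound, a ratio of 3.06 (2.58 to 3.64). Ccr2, the receptor that recruits monocytes, had 3 UMIs in WT intact and 55 in WT wound, a ratio of 12.4 (4.04 to 62.1), and 6.52 in the other spots. It passed the UMI minimum through WT wound, so its place among the compared genes was partly set by the filter. Csf1r, the receptor for macrophage colony-stimulating factor, had a ratio of 2.56 (1.72 to 3.91). Tyrobp, a signalling adaptor of myeloid cells, had 3.92 (2.74 to 5.75), and Lcp1, a leukocyte actin-bundling protein, 5.55 (2.96 to 11.5). The wound pieces of all 5 genes lay above the intact pieces.

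Genes of tissue-resident macrophages were higher in 3 of 7 compared. C1qa, a chain of complement C1q, measured 146, 167 and 186 CPM in WT intact and 445, 501 and 320 CPM in WT wound, a ratio of 2.78 (2.22 to 3.51), and its partner C1qb had 2.74 (2.15 to 3.51). Mrc1, the mannose receptor, which lymphatic endothelium can also express, had 2.68 (1.70 to 4.39), against 1.50 (1.28 to 1.77) in the other spots. Cd163, a haemoglobin scavenger receptor, was at 8 and 13 UMIs, 1.10 (0.423 to 3.07). Selenop, a selenium carrier, had 1.29 (1.10 to 1.52).

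Chemokines that attract monocytes and T cells were higher in 3 of 6 compared, with none lower. Of these, Ccl5 passed the UMI minimum through WT wound, where it is high, so its place in the count was partly set by the filter. Ccl5 had 3 UMIs in WT intact and 69 in WT wound, with 124, 58.0 and 30.8 CPM in the wound pieces, a ratio of 15.6 (5.12 to 77.5). Ccl8 had 2.92 (1.58 to 5.82) and Ccl9 3.10 (1.72 to 5.99). Their wound pieces lay above the intact ones. Ccl6 had 1.17 (0.983 to 1.39), and Ccl11, the eosinophil chemokine eotaxin, 0.911 (0.563 to 1.49).

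Neutrophil genes were sparse in the lymphatic-rich spots. The list of 14 summed to 46.8 CPM in WT intact and 124 CPM in WT wound, a ratio of 2.64 (1.73 to 4.15). These levels were 0.149 and 0.298 of those in the other spots. S100a9, which encodes a subunit of the neutrophil protein calprotectin, had 21 UMIs in WT wound and 0 in WT intact. The wound level was 4.75 times a floor of 3 UMIs over the chosen spots of WT intact, with no allowance for counting error in WT wound. Its wound pieces held 17.7, 34.3 and 12.3 CPM.

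**Figure D4:**
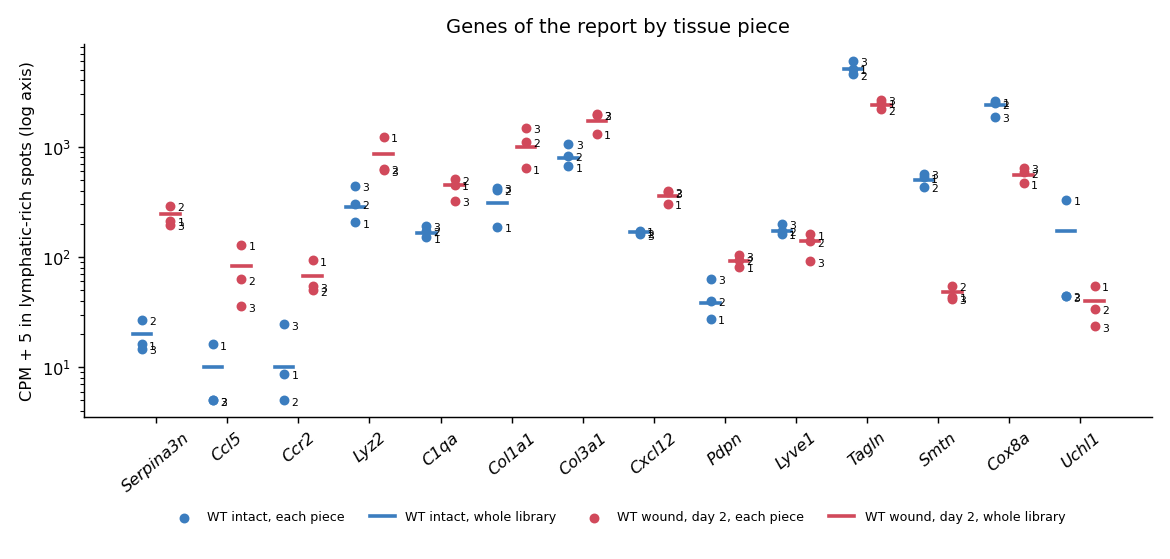
CPM plus 5 (log axis) of 14 genes in the lymphatic-rich spots of each tissue piece, numbered 1 to 3, in WT intact (blue) and WT wound (red), with a line at the value of the whole library. Serpina3n, Ccl5, Ccr2, C1qa and Cxcl12 lie higher in all 3 wound pieces, and Smtn, Cox8a and Tagln lower in all 3, whereas Uchl1 was high only in intact piece 1.

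Complement and acute-phase genes included a large difference. Serpina3n, a secreted serine protease inhibitor of the acute phase, measured 11.2, 22.0 and 9.77 CPM in the WT intact pieces and 209, 285 and 191 CPM in the WT wound pieces. The ratio was 15.8 (8.18 to 35.1). It stayed between 13.1 and 22.0 with each piece left out, was 14.2 in muscle-led and 18.0 in epithelium-led lymphatic-rich spots, and 8.80 (6.96 to 11.3) in the other spots. KO wound had 237 CPM.

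Of 10 complement and acute-phase genes compared, 5 were higher and none lower, beside 5.18% higher over all genes. C4b, complement C4, had a ratio of 3.46 (2.52 to 4.86), and the C1 proteases C1ra and C1s1 had 2.71 (1.84 to 4.10) and 2.62 (1.92 to 3.63). C3 measured 176, 123 and 293 CPM in WT intact and 725, 245 and 271 CPM in WT wound, a ratio of 2.47 (1.99 to 3.10). Its pieces overlapped, and the ratio was 1.44 without wound piece 1 and 1.48 without the B cell spots. C4b was 2.16 without wound piece 1. The list had 1.74 in muscle-led and 3.28 in epithelium-led spots.

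Antigen presentation genes of MHC class II were higher in 6 of 6 compared, and piece 1 of the WT wound carried much of this. Cd74, the invariant chain that escorts class II molecules, measured 295, 369 and 781 CPM in WT intact and 2041, 498 and 560 CPM in WT wound, a ratio of 2.72 (2.36 to 3.14). H2-Aa, a class II alpha chain, measured 105, 176 and 430 CPM in WT intact and 1016, 261 and 412 CPM in WT wound, a ratio of 3.09 (2.52 to 3.83). For both, wound pieces 2 and 3 lay within the intact range. H2-Eb1 and H2-Ab1, class II beta chains, had 2.98 (2.40 to 3.72) and 2.81 (2.27 to 3.51). H2-DMa and H2-DMb1, which help to load peptides, had 4.20 (2.42 to 7.81) and 3.31 (1.91 to 6.07).

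Without wound piece 1 the ratio fell short of 2 for Cd74 (1.27), H2-Aa (1.63), H2-Eb1 (1.61) and H2-Ab1 (1.54), and was 2.13 for H2-DMa and 2.07 for H2-DMb1. Without the B cell spots it was 1.88 for Cd74, 2.17 for H2-Aa, 2.11 for H2-Eb1, 1.87 for H2-Ab1, 2.75 for H2-DMa and 2.86 for H2-DMb1. The dendritic cell and class II list had 2.04 (1.84 to 2.28) in muscle-led and 5.03 (4.23 to 6.01) in epithelium-led spots. The other spots gave 2.03 for Cd74, 1.99 for H2-Aa and 1.51 for H2-Eb1. KO wound, with 3 B cell spots, had 758 CPM of Cd74 and 537 CPM of H2-Aa.

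Class II genes are known to share promoter elements, among them a CCAAT box in reverse orientation, so the promoters of H2-Aa and H2-Eb1, which were higher together, are shown. The sequences are RefSeq's (GRCm38.p6), from 250 bases before to 50 after the transcript start, on the gene's strand and 5′ to 3′, with GATTGG and its reverse complement in capitals. H2-Aa lies at chr17:34287774-34288073 on the minus strand and H2-Eb1 at chr17:34305617-34305916 on the plus strand.
H2-Aa: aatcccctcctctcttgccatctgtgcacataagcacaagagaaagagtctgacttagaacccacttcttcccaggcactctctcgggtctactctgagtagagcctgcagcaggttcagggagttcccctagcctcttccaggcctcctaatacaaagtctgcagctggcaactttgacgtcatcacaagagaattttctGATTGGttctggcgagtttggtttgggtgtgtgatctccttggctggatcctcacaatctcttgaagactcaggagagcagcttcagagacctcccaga
H2-Eb1: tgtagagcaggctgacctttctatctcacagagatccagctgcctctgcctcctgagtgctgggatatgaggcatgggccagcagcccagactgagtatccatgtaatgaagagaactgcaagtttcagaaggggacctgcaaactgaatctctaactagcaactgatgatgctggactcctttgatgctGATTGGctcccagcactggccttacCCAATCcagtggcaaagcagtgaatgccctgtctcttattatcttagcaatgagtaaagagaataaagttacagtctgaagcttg
Of 5 class II genes looked up, 4 were in the table and each had GATTGG, read on both strands, in at least 1 promoter, 4 of 5 promoters. The same letters were in 5292 of all 32851 promoters, or 16.1%. A match of these letters is a description of the sequence and not a binding site.

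UMIs of B cell genes lay mostly in wound piece 1. Cd79a, a chain of the B cell receptor complex, measured 37.4, 30.7 and 19.5 CPM in WT intact and 242, 7.91 and 0 CPM in WT wound, and Cd79b, its partner, 48.6, 8.78 and 0 against 191, 5.27 and 24.6 CPM. The library ratios were 3.03 (1.83 to 5.28) and 3.21 (1.82 to 6.03), and both genes that could be compared of the list of 11 were higher. The list had a ratio of 3.80 (2.80 to 5.24), and of 0.331 without wound piece 1. Without the spots with at least 5 B cell UMIs it was 1.45 (0.745 to 2.96). Those spots were picked on this list's own UMIs and were more numerous in WT wound. A lower ratio was thus built into that choice, and nothing is read from it. In the other spots the list had a ratio of 6.57, in muscle-led lymphatic-rich spots 1.44 and in epithelium-led ones 8.17.

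Other genes were also highest in wound piece 1. Mfge8, a phosphatidylserine-binding protein made by phagocytes and follicular stroma, measured 149, 176 and 176 CPM in WT intact and 1399, 221 and 240 CPM in WT wound, a ratio of 4.14 (3.34 to 5.18). It was 1.38 without wound piece 1 and 1.50 without the B cell spots. Clu, the secreted chaperone clusterin, had 5.77 (4.29 to 7.93), 1.55 without wound piece 1 and 1.43 without the B cell spots. Cd52, a lymphocyte surface peptide, had 4.60 and Coro1a, a leukocyte actin regulator, 4.52, with 1.60 and 1.76 without wound piece 1 and 2.51 and 2.80 without the B cell spots. Wound pieces 2 and 3 of Mfge8, Cd52 and Coro1a still lay above all intact pieces. In KO wound Mfge8 stood at 227 CPM and Clu at 140 CPM.

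**Figure D5:**
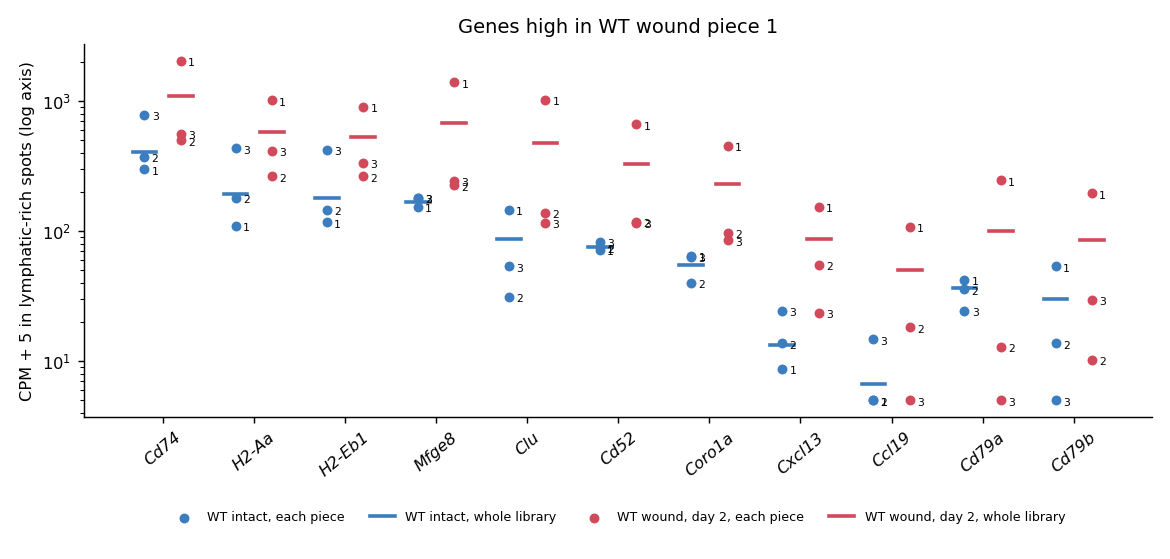
CPM plus 5 (log axis) in the lymphatic-rich spots of each tissue piece, numbered 1 to 3, in WT intact (blue) and WT wound (red), with a line at the whole library, for 11 genes. WT wound piece 1, which held all 12 B cell spots of that library, is the highest point for each gene, and for Cd79a the other wound pieces lie below all intact pieces.

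Antibody genes of plasma cells had large ratios that did not hold across pieces. Igha, the constant region of IgA, measured 82.2, 373 and 3418 CPM in WT intact and 1794, 6156 and 2835 CPM in WT wound, a ratio of 5.05 (4.58 to 5.58), and Igkc, the kappa constant region, had 3.78 (3.44 to 4.17). Intact piece 3 lay within the range of the wound pieces for both genes. Leaving out intact piece 3 gave 17.9 for Igha and 14.8 for Igkc, and leaving out wound piece 2 gave 2.79 for Igha. In epithelium-led lymphatic-rich spots the ratios were 41.5 and 34.4, and in muscle-led ones 1.71 and 1.07.

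Iglc1, the lambda 1 constant region, had 11 UMIs in WT intact and 616 in WT wound, a ratio of 38.0 (21.1 to 76.5). Wound piece 2 held 1463 CPM and the other wound pieces 56.0 and 258 CPM, and the ratio was 6.60 without it. Of 8 plasma cell genes compared, 7 were higher, and 1, Ighg1, was lower at 0.176 (0.102 to 0.291), with 742 CPM in intact piece 3 alone. Pieces overlapped for all 8. The list had 1.21 in the other spots and 1.34 in muscle-led lymphatic-rich spots.

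T cell and NK cell genes were sparse. The list of 15 summed to 207 CPM in WT intact and 261 CPM in WT wound, 1.26 (1.01 to 1.58), and 0.978 without wound piece 1. Of the 5 interferon response genes compared, 1 was higher, beside 5.18% over all genes. It was Ifi27l2a, with 291, 259 and 332 CPM in WT intact and 675, 619 and 572 CPM in WT wound, a ratio of 2.21 (1.86 to 2.64). Ifitm1, an interferon-inducible membrane protein, had 3.38 (2.53 to 4.57).

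Among the lower genes were several nuclear-coded genes of the mitochondrial respiratory chain, which makes most of a cell's ATP. Cox8a, a subunit of cytochrome c oxidase, measured 2574, 2472 and 1875 CPM in WT intact and 462, 582 and 640 CPM in WT wound, a ratio of 0.226 (0.204 to 0.251). Cox5b, another subunit, had 0.219 (0.187 to 0.256), Ndufb2 of complex I 0.255 (0.199 to 0.325), Uqcrq of complex III 0.330 (0.289 to 0.375) and the assembly factor Ndufaf8 0.195 (0.120 to 0.307). In all 5 the wound pieces lay below the intact ones.

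The same genes were lower in the other spots and in KO wound. The other spots gave 0.185 for Cox8a, 0.198 for Cox5b and 0.213 for Ndufb2. KO wound had 531 CPM of Cox8a and 303 CPM of Cox5b in its lymphatic-rich spots, near the WT wound values of 547 and 245 CPM. Rex1bd, Rnaseh2c, a subunit of ribonuclease H2, Cdc42ep5, a CDC42 effector, Fmc1, an ATP synthase assembly factor, and Epb41l4aos were lower at 0.206, 0.212, 0.251, 0.278 and 0.203. Epb41l4aos is named as an opposite-strand transcript of Epb41l4a, and its counts may share reads with that gene.

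Smooth muscle genes were lower in 2 of 11 compared, beside 2.70% over all genes. Smtn, which encodes the actin-binding protein smoothelin of contractile muscle, measured 523, 430 and 566 CPM in WT intact and 38.3, 50.1 and 36.9 CPM in WT wound, a ratio of 0.0871 (0.0604 to 0.122), and 0.103 in the other spots. Tagln, transgelin, measured 5103, 4540 and 6007 CPM in WT intact and 2518, 2185 and 2669 CPM in WT wound, a ratio of 0.476 (0.450 to 0.504). Acta2, smooth muscle actin, had 0.932 and Myh11, smooth muscle myosin, 0.860. The list summed to a ratio of 0.720, with 0.789 (0.768 to 0.811) in muscle-led and 1.25 (1.17 to 1.35) in epithelium-led spots. Those strata were cut on the balance of this list to the epithelial list. Ratios of its genes within them are therefore a description only. The muscle-led share of spots was lower in WT wound. Described in that way, Smtn had 0.0903 and Tagln 0.554 within muscle-led spots, the latter short of the limit.

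All 5 enteric neuron genes compared were lower, and none had pieces apart. Uchl1, a neuronal deubiquitinase, measured 325, 39.5 and 39.1 CPM in WT intact and 50.1, 29.0 and 18.5 CPM in WT wound, a ratio of 0.210 (0.136 to 0.317), and 0.893 without intact piece 1. Sst, somatostatin, measured 519, 0 and 518 CPM in WT intact and 14.7, 5.27 and 6.15 CPM in WT wound, 0.0283 (0.0120 to 0.0568). Vip, vasoactive intestinal peptide, had 0.170 (0.111 to 0.253), and 360 CPM in KO wound against 207 in WT intact. The direction of Vip depended on the choice of spots, with 1.29 in the top 20% of spots, 1.16 when spots were ranked without Ccl21a and 1.2 with equal weight of the 4 genes. In epithelium-led spots Sst had 1.22, from 2 UMIs in WT intact and 5 in WT wound. Enteric glia genes summed to a ratio of 1.22 (0.933 to 1.61), and mesothelial genes, at 52 and 18 UMIs, to 0.235 (0.129 to 0.408).

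Cell cycle genes were lower in 4 of 11 compared. Stmn1, a microtubule regulator of dividing cells, had a ratio of 0.468 (0.377 to 0.578), Hmgb2, a chromatin protein, 0.467 (0.372 to 0.585), and Birc5, the mitotic protein survivin, 0.362 (0.226 to 0.570). Birc5 was 1.26 in the top 5% of spots and 0.954 in muscle-led spots. Pcna, a replication clamp, had 0.844 (0.629 to 1.13). The list summed to a ratio of 0.560, of 0.727 in muscle-led and 0.393 in epithelium-led lymphatic-rich spots, and of 0.639 in the other spots. Beside it, the epithelial list had a ratio of 0.996 (0.963 to 1.03).

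Goblet cell secretory genes were higher in 3 of 8 compared. The mucin gene Muc2 had a ratio of 2.37 (2.03 to 2.78), with 1.80 in the other spots, and Zg16, a secreted lectin, had 2.11 (1.91 to 2.34), with 1.39. Spink1, a secreted trypsin inhibitor, had 3.47 (2.88 to 4.21), at 784 CPM in the lymphatic-rich and 5360 CPM in the other spots of WT wound. The epithelium-led share of spots was higher in WT wound, where the epithelial list had a ratio of 0.996 and the smooth muscle list 0.720. Whether that share bears on the goblet cell genes was not tested. Within muscle-led spots Muc2 had 2.11, Zg16 1.71 and Spink1 2.92. Hypoxia and glycolysis genes were neither higher nor lower in 8 of 8 compared, with a summed ratio of 1.02 (0.959 to 1.09).

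Of 7 lipid handling genes compared none passed the limit. Apoe, a lipid carrier of macrophages and other cells, measured 803, 597 and 879 CPM in WT intact and 1387, 1318 and 959 CPM in WT wound, a ratio of 1.73 (1.55 to 1.94) against 1.19 (1.15 to 1.24) in the other spots. Fabp4, a fatty acid carrier of capillary endothelium and fat, had 1.83 (1.26 to 2.70), and 0.595 without wound piece 2. The adipocyte list had 0.808, with 0.616 in muscle-led and 1.55 in epithelium-led spots. Among the HGF pathway genes, Hgfac itself measured 63.6 CPM for WT intact, 73.7 CPM for WT wound and 26.5 CPM for KO wound, the last from 18 UMIs. Where the KO allele is interrupted is not given in the sources used here, so this residue does not check the genotype. The ratio between the WT libraries was 1.16 (0.766 to 1.78). Spint1, a membrane inhibitor of HGF activator, had 2.36 (1.57 to 3.65).

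Lymphatic-rich spots of KO wound share the WT intact library as reference, so the 2 wound comparisons are not independent, and values are set side by side only. With KO wound set against WT intact, 6.94% of 4034 genes were higher and 3.57% lower. Serpina3n had a ratio of 15.8 in WT wound and 15.7 in KO wound, Ccr2 12.4 and 19.9, Col1a1 3.23 and 4.82, Cxcl12 2.16 and 2.21, and Pdpn 2.58 and 2.02. Ccl5 stood at 78.3 CPM in WT wound and 19.1 CPM in KO wound, ratios of 15.6 and 3.81. Cxcl13 stood at 82.8 and 25.0 CPM. Only 5 of the 57 KO wound spots lay in its piece 1 and 35 in piece 2, and no test of a difference between the wounds was possible.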

How the data were processed

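Visium libraries of WT intact colon, WT wound and KO wound, 1 each, were used. The deposited matrices hold raw UMI counts per gene and spot, made by the authors with Space Ranger 1.2.1 per the file headers, on mm10 per the submitters' processing notes. The deposited position tables give each spot's place. The aligner and annotation release are not given in the sources used here, and the images were not used. Rows sharing a symbol were summed.

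In each library the 10% of spots over tissue with the highest share of UMIs from the 4 genes were chosen. UMIs were summed per gene and divided by the spots' total as CPM. Total counts were 597826 for WT intact, 881571 for WT wound and 679790 for KO wound, and a floor of 3 UMIs was 5.02, 3.40 and 4.41 CPM. Ratios between libraries have exact conditional binomial 95% intervals (scipy 1.17.1), which cover counting error only. A gene was compared if it had 50 UMIs or more in the 2 libraries combined, and was called higher from a ratio of 2 upward and lower from 0.5 downward. With 1 library per group no p-value was computed. The WT libraries share 149 of the array's barcode sequences, which name array positions and not cells. The computation was tested on simulated data.

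The members, the 35 gene lists and the rule were chosen with earlier results of these data known. Named were, among genes past the limits with at least 100 UMIs, the 14 in each direction whose interval bound lay farthest from 1, leaving out unnamed genes, ribosomal proteins, mitochondrial genes and variable segments of immunoglobulins. From each list the 3 genes with most UMIs and up to 2 past the limits in each direction were named, and all genes of the lymphatic and growth factor lists. A selection is given, and genes named outside this rule, such as Ccl19, Ccr7, Cd163, Mrc1, C1ra and C1s1, were chosen after their values were seen. Adjoining spots, 20 or more together, made a tissue piece. Alternatives were other shares and rankings of spots, scalings (edgeR 4.0.16 for TMM factors only), minimum UMIs, spot weights, strata, and each piece left out.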

Additional observations from a re-analysis of the deposited data

How the results depend on the processing

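Against 240 higher and 125 lower genes, taking 5% of spots gave 121 and 63, a minimum of 20 UMIs 694 and 343, a minimum of 100 UMIs 88 and 64, and muscle-led spots alone 99 and 76. Fewer or more genes are compared under each of these settings. Taking 20% of spots gave 382 higher. Leaving out each piece in turn gave 142 to 282 higher and 86 to 134 lower genes, and the fewest higher genes, 142 and 147, remained when pieces 1 and 2 of WT wound were dropped. Without spots of at least 5 B cell UMIs, an alternative chosen after seeing the data, 155 genes were higher of 3810 compared. Among the 78 genes and lists past a limit, the ratio came to lie on the other side of 1 in 14 of 1849 recomputed values. Among the 83 inside the limits it did so in 152 of 1943, over 44 genes and lists. Cd79a was 0.858 in muscle-led spots, and 0.174 to 5.14 with each piece left out, the lowest without WT wound piece 1. It was 0.676 without B cell spots, which were picked on UMIs of a list that holds Cd79a, so a fall was built in. With each piece left out, Cd79b ranged from 0.441 to 13.3 and the B cell list from 0.331 to 8.07, both lowest without WT wound piece 1 and highest without WT intact piece 1. Vip was 1.29 with 20% of spots, 1.16 ranked without Ccl21a and 1.2 with equal weight of the 4 genes. Birc5 was 1.26 with 5% of spots and Sst 1.22 in epithelium-led spots. Ighg1 was 5.18 with 5% of spots, 9.74 in epithelium-led spots, 0.0985 to 11.2 with each piece left out, the highest without WT intact piece 3, and 7.68 without plasma-rich spots. The causes were not tested. Another scaling moved all log2 ratios by -0.08 (TMM) or -0.07 (median of ratios). No paired analysis was possible because each group has 1 library. Depth limits sparse lists, since genes under 50 UMIs in both libraries together were not compared: 16 of 18 growth factor and receptor genes, 13 of 14 neutrophil and 14 of 15 T and NK cell genes, and all mast cell and mesothelial genes.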

Other observations

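A few genes outside the named lists differed more in the lymphatic-rich spots than in the rest of the section, and they were picked after their values were seen. Igfbp7, a secreted protein of vessel walls, had a ratio of WT wound to WT intact of 2.68 (2.30 to 3.15) in lymphatic-rich spots and 1.61 (1.52 to 1.70) in the other spots, and it stayed between 2.35 and 3.10 with each piece left out. H2-D1, an MHC class I heavy chain, had 1.86 (1.63 to 2.13) against 1.17 (1.13 to 1.22). Its pieces lay apart, and the lowest ratio with 1 piece left out was 1.25.

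In the opposite direction, Hprt, a purine salvage enzyme, had a ratio of 0.462 (0.314 to 0.673) in lymphatic-rich spots and 1.02 (0.923 to 1.13) in the other spots, with 72 UMIs in WT intact and 49 in WT wound. Snrpd1, a core protein of the spliceosome, had 0.419 (0.299 to 0.585) against 0.862 (0.785 to 0.947). The wound pieces of both genes lay below the intact ones. Sgk1, a kinase induced by glucocorticoids and osmotic stress, had 1.73 (1.14 to 2.67) in lymphatic-rich and 3.78 (3.50 to 4.09) in other spots. These intervals cover counting error only, and with 1 library per group the difference between spot types was not tested.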
